A study of Mus musculus with 8 samples.

Results

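The insulin genes and the proinsulin processing genes comprised 8 genes, chosen by name: the hormone genes Ins1, Ins2 and Iapp, the proprotein convertases Pcsk1 and Pcsk2, the carboxypeptidase Cpe, the amidating enzyme Pam, and Sil1, which serves the chaperone BiP in the endoplasmic reticulum. They were found among the 55487 Ensembl gene identifiers of the deposited tables through GENCODE M21, and all 8 were among the 15189 genes tested. Beta cells had been flow-sorted from dispersed pancreatic islets of tamoxifen-treated mice. Of the 8 libraries, 4 carried the genotype label Control and 4 the label Chd4KO, named Chd4Db in the design text, a deletion of Chd4 in beta cells. Chd4 is the nucleosome-moving helicase of the NuRD complex. The sources used here name neither strain, age and sex nor the Cre line and the alleles of the Control mice. Each library title carries a number of its own, but the labels do not say that libraries are single animals, so p-values measure the spread between these samples.

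Mice have a pair of insulin genes, and both encode a preproinsulin that loses its signal peptide as it enters the endoplasmic reticulum. There it folds, with the help of chaperones such as BiP, and forms disulfide bonds. In secretory granules the convertases cut proinsulin and proIAPP after pairs of basic residues, Cpe trims the basic residues left at the cut ends, and Pam amidates the C-terminus of IAPP, the peptide stored and released with insulin. Sil1 is a nucleotide exchange factor that lets BiP release its clients.

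Reads in genes, recovered from TPM and exon length, per library numbered 16.4 to 41.0 M (Control) and 14.9 to 20.2 M (Chd4KO). TPM is a level of transcripts per length, scaled to the same total in every library, so a larger share of insulin lowers the TPM of every other gene in that library. Chd4 itself, the targeted gene, had 15.98, 13.4, 11.1 and 12.3 TPM in Control replicates 1 to 4 and 8.38, 6.18, 5.27 and 2.59 TPM in Chd4KO replicates 1 to 4, with no overlap. Its change of -1.18 did not pass (limma adjusted p = 0.0725), and it passed in 7 of 20 alternatives, among them median-of-ratios scaling (-0.94, adjusted p = 0.0112) and voom on recovered reads (-1.23, adjusted p = 0.0337). A pair of libraries stood apart. In Chd4KO replicate 4 insulin made up 62.0% of TPM, against 32.4 to 47.0% in the other 7, and 12702 genes reached 1 TPM, against 14788 to 15923. In Chd4KO replicate 2 the 14 acinar cell markers, most of them digestive enzymes, summed to 37579.9 TPM (3.76% of the total), against 2.55 to 1444 TPM in the other 7. The changes of the 8 genes and their ratios are also given without both of these libraries. Across the 15189 genes tested, 2.97% were called, 1.44% downward, and 2460 had an unadjusted p under 0.05 in either direction. Of the 8 beta cell markers, which include Ins1 and Ins2, 2 fell and 6 did not pass, with 5 lower at an unadjusted p under 0.05. Those that fell were Mafa, described below, and Slc2a2, the glucose transporter GLUT2 (170.3 ± 26.9 TPM in Control, 67.8 ± 24.8 in Chd4KO, limma adjusted p = 0.0310). The summed markers of alpha cells (1481 to 2848 TPM in Control, 790.2 to 4144 in Chd4KO), delta, PP, ductal and endothelial cells and leukocytes (27.9 to 52.3 TPM in Control, 51.1 to 99.1 in Chd4KO) overlapped between the groups, for leukocytes by little more than 1 TPM. Single markers among them were called. Cd68 and Fcer1g, 2 of the 4 tested leukocyte markers, rose by 1.22 and 1.51 on the log2 scale (limma adjusted p = 0.0132 and 0.0482). The other 2, Lyz2 (0.15) and Cd74 (-0.21), did not pass. The delta cell marker Rbp4 rose by 1.80 (limma adjusted p = 0.0330), while Sst (-0.0071) and Hhex (-0.35) did not pass. The ductal marker Cftr fell by 1.87 (limma adjusted p = 0.0238), while Krt7 (-0.17), Muc1 (0.92) and Spp1 (0.39) did not pass. Cftr reached 1 TPM in Control libraries only, so it entered the test through the group where it was high. The sums of the 6 mesenchymal markers did not overlap between the groups, at 0.148 to 0.510 TPM in Control and 0.773 to 1.26 TPM in Chd4KO, all near 0. The part of other cell types in the results was not tested. In such pooled RNA, fewer cells of a type and less RNA per cell cannot be told apart.

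The transcripts of Ins1 and Ins2 are much alike, which bears on how reads are assigned to each, so their coding sequences are shown first. They are the first 270 of 324 coding bases of Ins1 and the first 276 of 330 of Ins2, from GENCODE M21 transcripts without the stop codon, and the 54 bases left out at the end are identical in both. Capitals mark the bases that differ between the genes or have no partner in the other.
Ins1: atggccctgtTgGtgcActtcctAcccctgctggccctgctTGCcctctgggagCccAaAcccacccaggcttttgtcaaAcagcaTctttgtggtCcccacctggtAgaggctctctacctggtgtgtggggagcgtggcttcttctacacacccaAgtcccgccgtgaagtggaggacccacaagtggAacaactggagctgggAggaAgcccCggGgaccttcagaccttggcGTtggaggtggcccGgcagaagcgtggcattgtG
Ins2: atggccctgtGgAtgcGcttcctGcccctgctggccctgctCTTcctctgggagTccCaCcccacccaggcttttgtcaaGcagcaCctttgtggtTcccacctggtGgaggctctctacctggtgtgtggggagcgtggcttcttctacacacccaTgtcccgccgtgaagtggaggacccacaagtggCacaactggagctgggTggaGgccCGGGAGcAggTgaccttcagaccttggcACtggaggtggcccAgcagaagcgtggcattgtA
Over 330 aligned positions 300 were identical (90.9%), 24 differed and 6 were gapped, all of these before the last 54 bases, which were the longest identical stretch. Among all annotated transcripts of the genes, untranslated parts included, no word of 75 bases occurred in both. Words of 50 bases shared by both made up 0.691% of those of Ins1 and 0.465% of those of Ins2. Words of 25 bases did so for 6.26% and 4.62%. The sources used here do not give the read length. Comparison of levels between the pair also rests on the exon length that divides the reads, 1062 bases for Ins1 and 1312 for Ins2, whereas single Ins2 transcripts have 259 to 918 bases.

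Neither insulin gene passed the test. Ins1 (ENSMUSG00000035804, mm10 chromosome 19, 52264297 to 52265476) had 93173, 105039, 114018 and 119665 TPM in Control replicates 1 to 4 and 111055, 102055, 123943 and 110403 TPM in Chd4KO replicates 1 to 4. The groups overlapped, with 3 of the 4 Chd4KO values inside the Control range. Its change was 0.05 ± 0.17 (log2 of TPM + 1, SE, n = 4 each, limma adjusted p = 0.869). The 95% interval ran from -0.33 to 0.43, which is 0.798 to 1.35 times the Control level. Ins2 (ENSMUSG00000000215, chromosome 7, 142678656 to 142743381) had 287655, 295519, 304127 and 288793 TPM in Control and 253197, 221729, 345808 and 509589 TPM in Chd4KO. No Chd4KO value of Ins2 fell inside the narrow Control range: 2 lay below it and 2 above it. The change was 0.10 ± 0.26 (limma adjusted p = 0.843), with a 95% interval from 0.711 to 1.62 times the Control level. Without Chd4KO replicates 2 and 4 the changes of Ins1 and Ins2 were 0.13 and 0.01. The interval of Ins2 holds rises and falls of these sizes, so the test does not show that its level was kept.

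**Figure D1:**
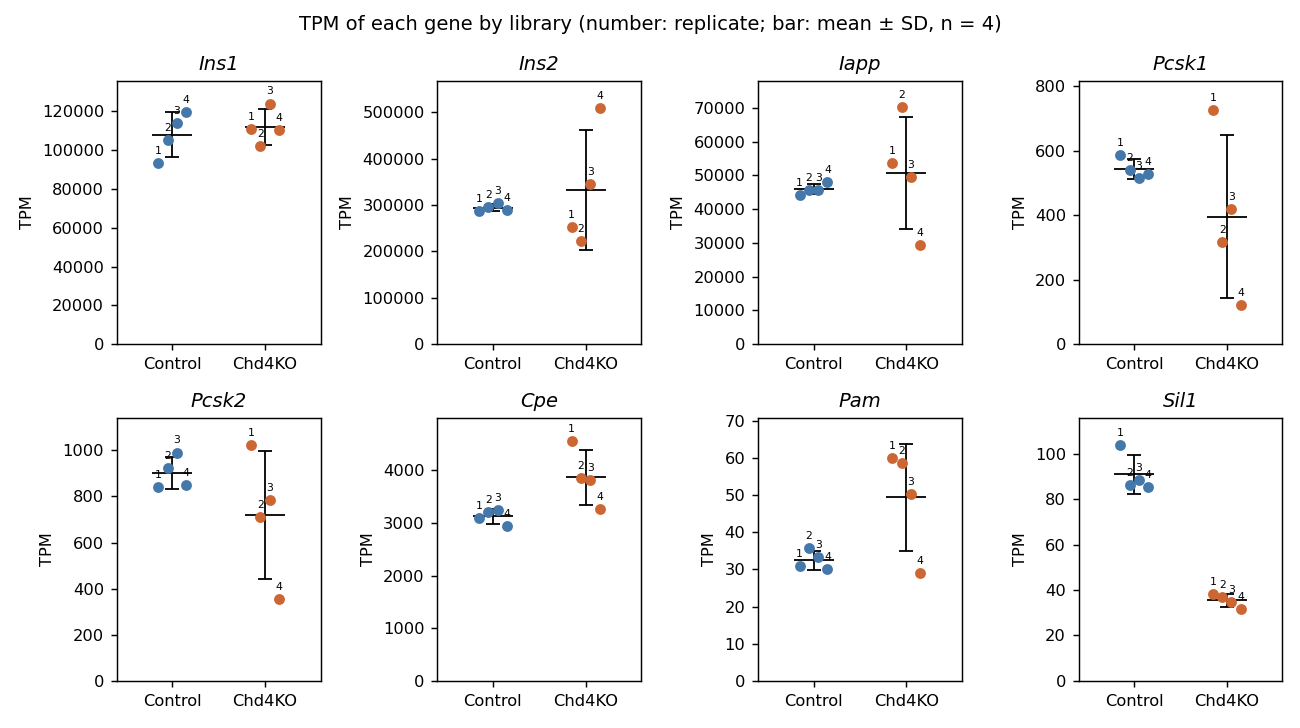
TPM of the 8 genes (y axis, linear, from 0) in Control and Chd4KO libraries, with each point a library labelled by its replicate number and each bar the mean ± SD (n = 4). Sil1 is low in all 4 Chd4KO libraries, Ins1 overlaps between the groups, and most other genes spread far more widely in Chd4KO, where replicate 4 is highest for Ins2 and lowest for Iapp, Pcsk1, Pcsk2, Cpe and Pam.

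The balance between the insulin genes was measured as the ratio of Ins2 to Ins1 TPM inside each library, which does not depend on how the library was scaled. It was 3.09, 2.81, 2.67 and 2.41 in Control replicates 1 to 4 and 2.28, 2.17, 2.79 and 4.62 in Chd4KO replicates 1 to 4. The ratio of Chd4KO replicate 4 exceeded every Control value, and replicates 1 and 2 lay below all of them. The mean ratio was 2.75 ± 0.282 in Control and 2.96 ± 1.13 in Chd4KO libraries (SD, n = 4 each), a difference of 0.05 on the log2 scale (exact permutation test, two-sided p = 0.971, adjusted p = 0.971 over the 10 ratios and shares tested). Without Chd4KO replicate 4 the difference turned to -0.19, and without replicates 2 and 4 it was -0.12. As a ratio of recovered reads, with no division by length, it was 2.98 to 3.81 in Control and 2.68 to 5.70 in Chd4KO. Insulin, taken as Ins1 plus Ins2, took 40.2% ± 1.58 of the TPM of Control libraries and 44.4% ± 13.2 of that of Chd4KO libraries (SD over 4 each, two-sided exact permutation p = 0.657, adjusted p = 0.821). The difference of 4.24 percentage points turned to -1.61 without Chd4KO replicate 4, and it was 1.5 without replicates 2 and 4.

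The upstream sequences of Ins1 and Iapp are shown because Mafa, a Maf-family factor that activates insulin transcription, fell in these libraries while the hormone genes did not pass. They are RefSeq sequences of GRCm38.p6 on the plus strand, and 5 of the 8 genes had an entry. Capitals mark letters that match TAAT (the A box, bound by homeodomain factors such as Pdx1), CANNTG (the E box, bound by basic helix-loop-helix factors such as Neurod1), GCCATCTG (an E1 element, which contains an E box) or TGC and TCAGC spaced by 4 bases (a Maf site), each searched on both strands.
Ins1, chr19:52264047-52264296: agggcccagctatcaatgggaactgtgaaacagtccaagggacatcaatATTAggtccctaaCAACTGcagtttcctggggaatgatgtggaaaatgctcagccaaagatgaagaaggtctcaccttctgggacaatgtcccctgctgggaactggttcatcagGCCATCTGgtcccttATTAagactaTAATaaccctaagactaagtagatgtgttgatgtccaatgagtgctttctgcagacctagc
Iapp, chr6:142298175-142298422: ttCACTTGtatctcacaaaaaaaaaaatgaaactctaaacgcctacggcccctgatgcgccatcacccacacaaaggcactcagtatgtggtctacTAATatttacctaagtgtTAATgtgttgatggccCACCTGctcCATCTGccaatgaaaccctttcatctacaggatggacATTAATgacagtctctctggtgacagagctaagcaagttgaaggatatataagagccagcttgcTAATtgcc
In the window from 250 bases before to 50 after the annotated start, Ins1 held 3 A boxes, 4 E boxes, 2 E1 elements and 1 Maf site. The E1 elements are named by their letters alone, not by their place in the promoter. The Maf site and an E1 element lay beside each other in a stretch of 27 bases, at bases 22 to 48 after the annotated start. Whether transcription begins at that annotated start in these cells was not tested.
Ins1, chr19:52264318-52264344: TGCAGCTTCAGCccctctgGCCATCTG
Iapp held 5 A boxes, 3 E boxes, and no E1 element or Maf site, and the windows of Pcsk1 and Pam held neither of the last 2 motifs, while that of Pcsk2 held 1 Maf site. Of 32851 RefSeq windows of the same length, 58.0% held an A box, 72.3% an E box, 1.32% an E1 element and 1.30% a Maf site. A match of letters is a description of these windows, not a measured binding site.

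Iapp (ENSMUSG00000041681, chromosome 6, 142298423 to 142303961) was the third most abundant transcript of both groups, after Ins2 and Ins1. It had 44226, 45614, 45694 and 47919 TPM in Control and 53721, 70123, 49396 and 29512 TPM in Chd4KO. In 3 Chd4KO libraries Iapp exceeded every Control value, and in replicate 4 it was below all of them. The change was 0.08 ± 0.26 (log2, SE, limma adjusted p = 0.878), with a 95% interval from 0.703 to 1.59 times Control. It was 0.17 without Chd4KO replicates 2 and 4, and -0.10 and 0.32 without replicate 2 and replicate 4 alone. Per 1000 TPM of insulin there were 116, 114, 109 and 117 TPM of Iapp in Control replicates 1 to 4 and 147, 217, 105 and 47.6 in Chd4KO replicates 1 to 4. Iapp stood in nearly the same proportion to insulin in all Control libraries and in widely different ones in Chd4KO, highest in the library with acinar RNA and lowest in the library richest in insulin. The mean difference was -0.02 (log2, exact permutation p = 0.971, adjusted p = 0.971), and it was 0.13 without those 2 libraries.

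Among the convertases, Pcsk1, which encodes the enzyme PC1/3 that begins proinsulin cleavage, and Pcsk2, which encodes PC2, did not pass. Pcsk1 (ENSMUSG00000021587, chromosome 13, 75089826 to 75134861) had 587, 540, 515 and 527 TPM in Control and 725, 316, 419 and 121 TPM in Chd4KO. It lay below the Control range in 3 Chd4KO libraries and above it in replicate 1, a 5.97-fold range between libraries of 1 genotype, against 1.14-fold in Control. The change was -0.72 ± 0.46 (log2, SE, limma adjusted p = 0.453), with a 95% interval from 0.295 to 1.25 times Control, and it came to 0.03 without replicates 2 and 4, to -0.24 without replicate 4 and to -1.10 without replicate 1. Pcsk2 (ENSMUSG00000027419, chromosome 2, 143546156 to 143816285) had 842, 923, 990.3 and 850.03 TPM in Control and 1023, 711, 784 and 353 TPM in Chd4KO. Like Pcsk1 it was below the Control range in 3 Chd4KO libraries and above it in replicate 1. The change was -0.42 ± 0.31 (adjusted p = 0.491), with a 95% interval from 0.461 to 1.21 times Control, and it was -0.0064 without replicates 2 and 4 and -0.12 without replicate 4. The antisense genes Pcsk2os1 and Pcsk2os2 overlap Pcsk2, at 169 and 678 TPM in Control and 134 and 550.4 TPM in Chd4KO. The library kit named in the labels does not mark strand, so reads of Pcsk2 and of these genes cannot be told apart where they overlap.

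Per 1000 TPM of insulin, Pcsk1 measured 1.35 ± 0.135 TPM in Control and 1.01 ± 0.739 in Chd4KO (SD over 4 libraries each; exact permutation p = 0.343, adjusted p = 0.571). Pcsk2 measured 2.24 ± 0.125 and 1.81 ± 0.949 (p = 0.371, adjusted p = 0.571 in the same exact permutation tests). In Chd4KO replicate 4 these values were 0.196 and 0.569, and without replicates 2 and 4 the log2 differences of -0.82 and -0.53 came to -0.017 and -0.048. Without replicate 4 alone they were -0.17 and -0.042, and without replicate 1 they were -1.28 and -0.81. The ratio of Pcsk1 to Pcsk2 was 0.698, 0.585, 0.521 and 0.620 in Control and 0.709, 0.445, 0.535 and 0.344 in Chd4KO, with both groups overlapping (exact permutation p = 0.314, adjusted p = 0.571). Its log2 difference of -0.30 was 0.032 without replicates 2 and 4, -0.12 without replicate 4 and -0.47 without replicate 1.

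**Figure D2:**
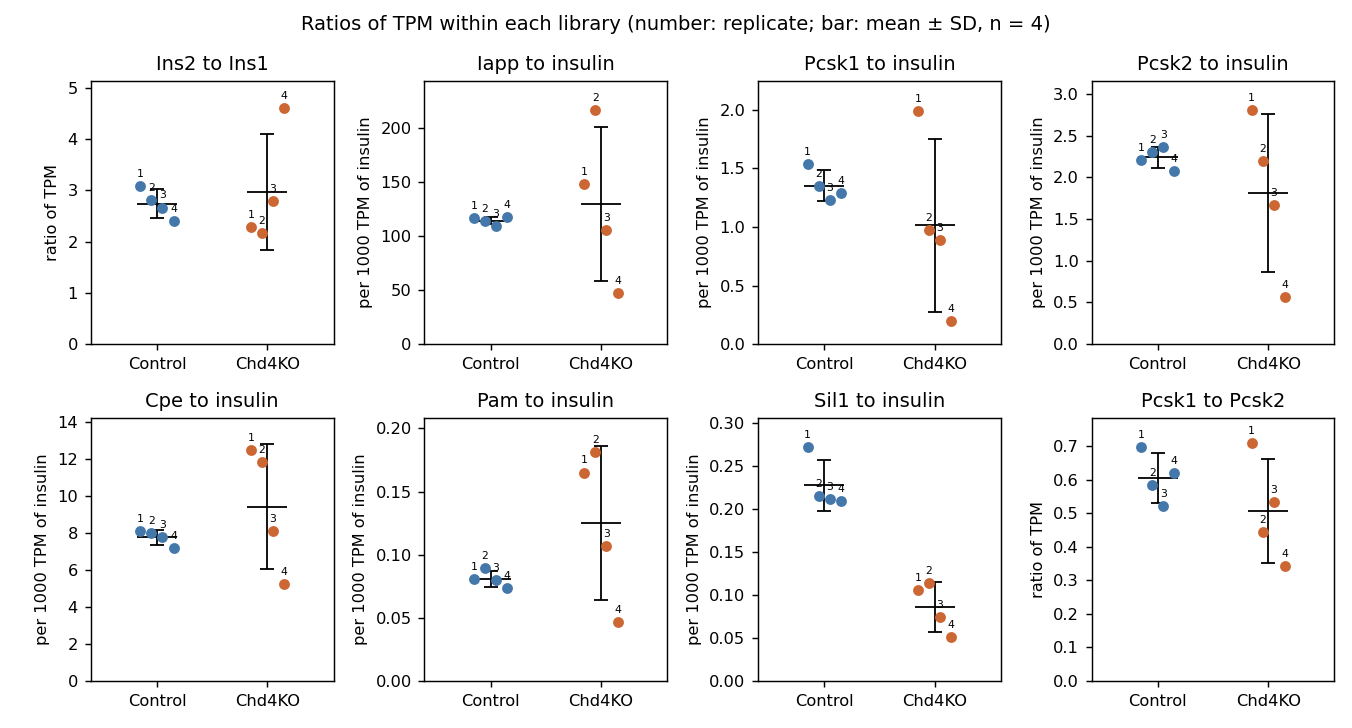
Ratios of TPM inside each library (y axes, linear, from 0: Ins2 to Ins1 and Pcsk1 to Pcsk2 as plain ratios, the others per 1000 TPM of Ins1 plus Ins2), with each point a library labelled by replicate number and each bar the mean ± SD (n = 4). Among these 8 ratios the groups lie apart for Sil1 alone, 0.209 to 0.272 in Control against 0.0511 to 0.114 in Chd4KO, while the other ratios spread around the Control values.

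Cpe and Pam, which act on the cut ends of the peptides, were higher on average in Chd4KO, and neither passed. Cpe (ENSMUSG00000037852, chromosome 8, 64592542 to 64693054) had 3089.8, 3214, 3253 and 2936 TPM in Control and 4548, 3848, 3807 and 3262 TPM in Chd4KO. All 4 Chd4KO values lay above all Control values, the lowest of them by a narrow margin. The change of 0.30 ± 0.17 (log2, SE) did not pass (limma adjusted p = 0.408), and its 95% interval ran from 0.942 to 1.61 times Control. It was 0.41 without replicates 2 and 4 (adjusted p = 0.163) and turned to -0.05 under quantile normalisation. Pam (ENSMUSG00000026335, chromosome 1, 97795114 to 98095646) had 30.9, 35.7, 33.3 and 30.1 TPM in Control and 60.1, 58.6, 50.2 and 28.9 TPM in Chd4KO. Pam was above every Control value in 3 Chd4KO libraries and below all of them in replicate 4. The change was 0.54 ± 0.25 (limma adjusted p = 0.323), with a 95% interval from 0.985 to 2.15 times Control. The call on Pam depends on the scaling and on 1 library: the change was 0.82 with median-of-ratios scaling (adjusted p = 0.0104) and 0.77 without Chd4KO replicate 4 (adjusted p = 0.0162) and 0.74 without replicates 2 and 4 (adjusted p = 0.0442), and it passed in 6 of 20 alternatives. Per 1000 TPM of insulin, Cpe measured 7.78 ± 0.417 TPM in Control and 9.43 ± 3.39 in Chd4KO (SD over 4 libraries each; exact permutation p = 0.400, adjusted p = 0.571). Pam measured 0.0809 ± 0.00640 and 0.125 ± 0.0612 (exact permutation p = 0.314, adjusted p = 0.571). These ratios rest on single Chd4KO libraries. The log2 difference of Cpe to insulin, 0.20, was 0.037 without replicate 1, 0.061 without replicate 2, 0.45 without replicate 4 and 0.37 without replicates 2 and 4. That of Pam to insulin, 0.45, was 0.26, 0.22, 0.87 and 0.72 in the same settings, and the exact permutation p without replicate 4, 0.0571, is the smallest that 4 against 3 libraries allow. Pam's levels are low partly because its reads are divided by 11892 bases of merged exons.

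Sil1 fell, and it was the 1 gene of the 8 that passed. Sil1 (ENSMUSG00000024357, chromosome 18, 35266396 to 35499780) had 104, 86.2, 88.6 and 85.4 TPM in Control replicates 1 to 4 and 38.3, 37.0, 34.8 and 31.7 TPM in Chd4KO replicates 1 to 4. The groups lay far apart, with the highest Chd4KO value under the lowest Control value, and Chd4KO libraries held 864 to 1289 recovered reads of the gene. The mean fell from 91.0 ± 8.55 to 35.5 ± 2.91 TPM (SD, n = 4 each), which leaves 39.0% of the Control level. The change was -1.33 ± 0.16 (log2, SE, limma adjusted p = 0.0033), with a 95% interval from 0.307 to 0.513 times Control. Of all genes tested 2.97% changed, 1.53% upward and 1.44% downward, so 1 called gene among 8 cannot be read as a result about the group, and Sil1 was listed with its change already known. Sil1 also fell without Chd4KO replicates 2 and 4 (-1.29, adjusted p = 0.00692). The call was lost in 1 of 20 alternatives, when each library was scaled to its insulin level (-1.43, adjusted p = 0.0890). Per 1000 TPM of insulin there were 0.272, 0.215, 0.212 and 0.209 TPM of Sil1 in Control and 0.105, 0.114, 0.0742 and 0.0511 in Chd4KO. The mean ratio was 38.0% of that in Control (exact permutation p = 0.0286, the smallest that 4 against 4 libraries allow, adjusted p = 0.143 over the 10 tests). The log2 difference was -1.46, and -1.35 without Chd4KO replicates 2 and 4. The antisense genes AC147989.1 and AC147989.3 lie within the span of Sil1 and fell too, from 31.6 ± 5.65 to 12.98 ± 3.97 TPM and from 27.96 ± 1.11 to 15.1 ± 0.964 TPM (limma adjusted p = 0.0243 and 0.0201). Their reads cannot be told apart from those of Sil1 where exons overlap.

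The chaperone that Sil1 serves did not pass. Hspa5, which encodes BiP, had 1751, 1906, 2898 and 2463 TPM in Control and 3661, 1294, 1959 and 1214 TPM in Chd4KO (log2 change -0.27 ± 0.36, limma adjusted p = 0.689), and the groups overlapped. Per 1000 TPM of Hspa5 there were 59.2, 45.2, 30.6 and 34.7 TPM of Sil1 in Control and 10.5, 28.6, 17.8 and 26.1 in Chd4KO. The groups did not overlap, though the gap between 28.6 and 30.6 was narrow (exact permutation p = 0.0286, adjusted p = 0.143). The log2 difference was -1.09, and -1.59 without Chd4KO replicates 2 and 4, where Hspa5 itself turned to 0.28. Hyou1, the other exchange factor of BiP, which was picked out after its values had been seen, averaged 136 and 115 TPM (limma adjusted p = 0.563).

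**Figure D3:**
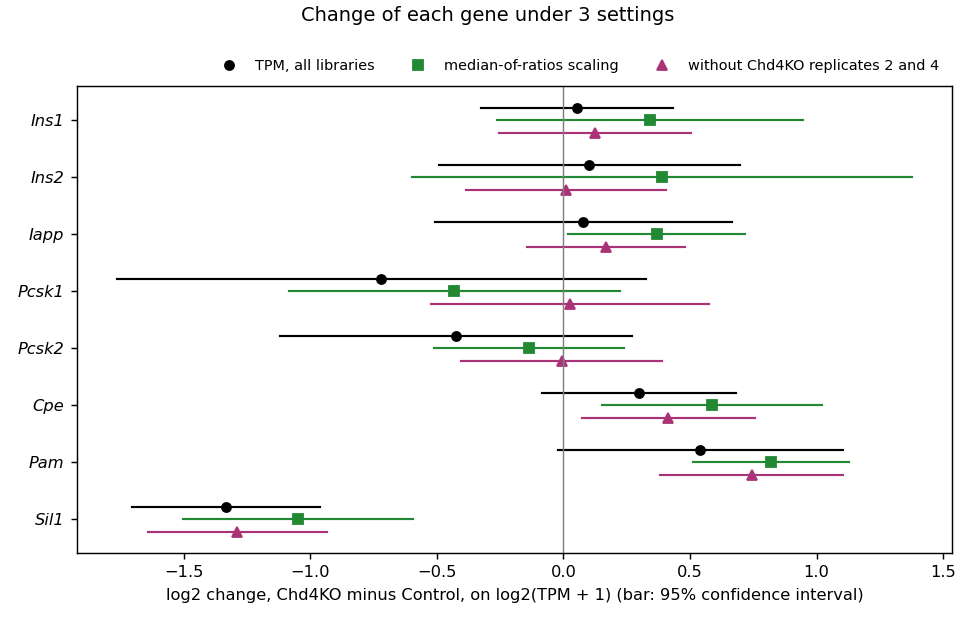
Change of each gene between Chd4KO and Control (x axis, log2 of TPM + 1, points, with 95% confidence intervals as bars) on TPM with all libraries, after median-of-ratios scaling, and without Chd4KO replicates 2 and 4. The intervals of Sil1 lie below 0 under each of the 3 settings, those of Pcsk1, Pcsk2, Ins1 and Ins2 cross 0 under each, and that of Pam crosses 0 on TPM with all libraries only.

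In order of level per length the 8 genes ran Ins2, Ins1, Iapp, Cpe, Pcsk2, Pcsk1, Sil1 and Pam in every Control library. The neighbours Sil1 and Pam changed places in Chd4KO replicates 1, 2 and 3, where Pam was 1.44 to 1.58 times Sil1, and kept them in replicate 4, where Sil1 was 1.09 times Pam. In Control, Sil1 had been 2.41 to 3.36 times Pam. Their order rests on division by exon length, 3436 bases for Sil1 and 11892 for Pam. In recovered reads Pam exceeded Sil1 in all 8 libraries. No other neighbours changed places in any library. Within Control the ranges of neighbours did not overlap, whereas in Chd4KO those of Pcsk1 and Pcsk2 and of Sil1 and Pam did. Among all genes ranked by group mean, Cpe moved from rank 11 in Control to rank 10 in Chd4KO, Pcsk2 from 46 to 62, Pcsk1 from 100 to 141, Sil1 from 964 to 2481 and Pam from 3000 to 1783. Together the 8 genes took 43.0 to 46.9% of TPM in Control and 39.9 to 65.3% in Chd4KO.

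The median change of the 8 genes was 0.07, against -0.25 for all genes tested, a shift of all genes that came to -0.02 with median-of-ratios scaling. Relative to that median gene the changes were 0.31 for Ins1, 0.35 for Ins2, 0.33 for Iapp, -0.47 for Pcsk1, -0.17 for Pcsk2, 0.55 for Cpe, 0.79 for Pam and -1.08 for Sil1. The groups did not overlap for 2 of the 8, Cpe and Sil1, and for 14.8% of all genes tested.

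Variation among Chd4KO libraries was wide for most of these genes. The coefficient of variation of Ins2 was 2.58% in Control and 38.9% in Chd4KO, that of Iapp 3.33 and 33.0%, and that of Pcsk1 5.82 and 63.8%. It was 7.72 and 38.6% for Pcsk2, 4.58 and 13.6% for Cpe and 7.86 and 29.1% for Pam. Ins1 and Sil1 went the other way, with 10.7 and 8.08% for Ins1 and 9.40 and 8.21% for Sil1. A wider spread in Chd4KO was the rule in these libraries: of 7124 tested genes with a mean of at least 10 TPM, 91.3% had a larger coefficient in Chd4KO than in Control, and 72.4% did without Chd4KO replicate 4 and 87.6% without replicate 2. Without Chd4KO replicate 4 the coefficients of Ins2, Iapp and Pcsk1 were 23.6, 18.9 and 43.7%. Without replicate 2 they were 35.1, 29.2 and 71.5%. In that setting the coefficient of Sil1 in Chd4KO, 9.56%, was above its 9.40% in Control, and Ins1 alone stayed narrower.

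**Figure D4:**
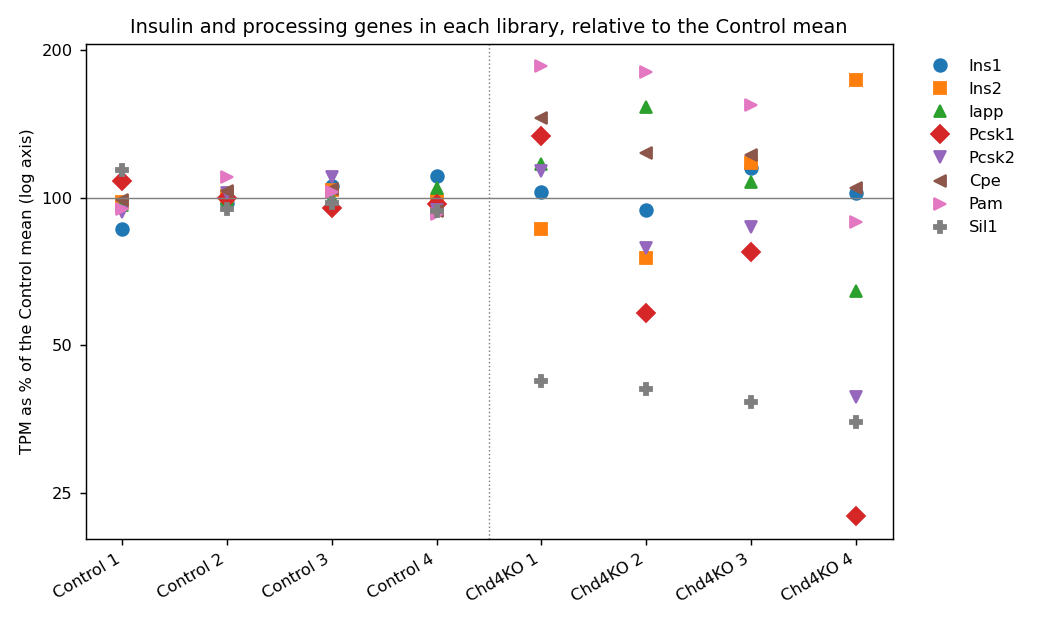
TPM of each gene in each of the 8 libraries (x axis) as a percentage of its Control mean (y axis, log), with a symbol per gene and a line at 100%. Control points stay close to the line, and Chd4KO points fan out, with Ins2 at 173% and Pcsk1 at 22.4% in replicate 4, Iapp at 153% in replicate 2, and Sil1 between 34.8 and 42.2% in all 4.

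Genes that share the path of insulin from transcription to granule were read in 7 lists. Of their 84 genes 82 were tested, and 2 rose, 1 fell and 79 did not pass. Among all 15189 genes tested 2.97% were called, and 2460 had an unadjusted p under 0.05. Without Chd4KO replicates 2 and 4 the number called in the lists was 5, at a setting that called 5.07% of all genes tested. In the list of BiP and its cofactors none of 11 tested genes passed (median change -0.17, none at an unadjusted p under 0.05), with Hspa5 as above and Sdf2l1, a stress-induced partner of BiP and its cochaperones, at 672 ± 130.2 and 908 ± 397 TPM (SD, n = 4 each, limma adjusted p = 0.698). Its change of 0.29 was 0.65 without Chd4KO replicates 2 and 4 (adjusted p = 0.148). None of 15 genes of signal peptide translocation and cleavage passed (median -0.08, 1 at an unadjusted p under 0.05). Tram1, a membrane protein beside the translocon, had 477 ± 53.0 and 496 ± 138 TPM (adjusted p = 0.969), and Ssr2, a subunit of the translocon-associated protein complex, 394 ± 51.3 and 377 ± 78.6 TPM (adjusted p = 0.855).

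In the list of disulfide formation 1 of 10 genes rose and 9 did not pass (median -0.07, 2 at an unadjusted p under 0.05). Prdx4, an endoplasmic reticulum peroxiredoxin that uses hydrogen peroxide to drive disulfide formation, had 19.4, 22.96, 23.6 and 22.7 TPM in Control and 40.1, 34.7, 38.3 and 41.0 TPM in Chd4KO. All 4 Chd4KO libraries were above all Control libraries, and the mean rose from 22.2 ± 1.85 to 38.5 ± 2.78 TPM (log2 change 0.77 ± 0.16, SE, limma adjusted p = 0.0377). The call of Prdx4 held in 9 of 20 alternatives, with adjusted p between 0.00641 and 0.581, and its change was 0.80 without Chd4KO replicates 2 and 4 (adjusted p = 0.0306). The isomerases P4hb and Pdia3 had 1766 ± 208 and 1640 ± 894 TPM and 1041 ± 98.3 and 1004 ± 397 TPM (adjusted p = 0.698 and 0.804). Ero1lb, an oxidase of the isomerases that is abundant in beta cells and was picked out after its values had been seen, averaged 767 TPM in Control and 322 TPM in Chd4KO without overlap, but did not pass (-1.51, adjusted p = 0.143). None of 12 genes of endoplasmic-reticulum-associated degradation passed (median -0.08, none at an unadjusted p under 0.05). Herpud1 and Os9, which act in the disposal of misfolded proteins, had 823 ± 261 and 776 ± 267 TPM and 323 ± 23.1 and 319.8 ± 109 TPM (adjusted p = 0.899 and 0.876).

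Of the other convertases and carboxypeptidases and their binding proteins, 10 of 12 were tested and Qpct rose. The median change was -0.22, with 2 genes at an unadjusted p under 0.05. Qpct, a glutaminyl cyclase that turns N-terminal glutamine into pyroglutamate, had 1.28, 1.87, 1.78 and 2.27 TPM in Control and 5.81, 8.20, 5.57 and 9.41 TPM in Chd4KO. Its groups lay apart, and the mean rose from 1.80 ± 0.407 to 7.25 ± 1.87 TPM (log2 change 1.54 ± 0.22, SE, limma adjusted p = 0.00651), a call kept in 19 of 20 alternatives. It was 1.27 without Chd4KO replicates 2 and 4 (adjusted p = 0.0125). Scg5, the granule protein 7B2 that binds proPC2 until it can mature, had 522 ± 61.2 and 614 ± 23.1 TPM and did not pass (adjusted p = 0.479), although its groups did not overlap. Pcsk1n, which encodes proSAAS, an inhibitor of PC1/3, had 476 ± 80.5 and 406 ± 45.4 TPM (adjusted p = 0.542). None of 10 genes of the granule milieu passed (median -0.36, 1 at an unadjusted p under 0.05). Slc30a8, the zinc transporter of insulin granules, had 620, 894, 780.1 and 747 TPM in Control and 540, 476, 551 and 380.03 TPM in Chd4KO, without overlap (log2 change -0.64 ± 0.20, limma adjusted p = 0.152). It was -0.47 without Chd4KO replicates 2 and 4 (adjusted p = 0.196). Atp6ap1, an accessory subunit of the proton pump, had 339.5 ± 26.6 and 304 ± 66.7 TPM (adjusted p = 0.641).

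Of 14 transcription factors of the insulin genes 1 fell and 13 did not pass (median -0.39, 2 at an unadjusted p under 0.05). Mafa fell from 164, 162, 183 and 154 TPM in Control to 62.9, 20.4, 69.8 and 34.9 TPM in Chd4KO (log2 change -1.95 ± 0.36, SE, limma adjusted p = 0.0229). Its call was lost in 5 of 20 alternatives, with no filter (adjusted p = 0.0588) and without each of Control replicates 1 to 4 in turn (adjusted p = 0.0716 to 0.0825). Without Chd4KO replicates 2 and 4 the change was smaller, -1.31, and passed (adjusted p = 0.00598). Neurod1 had 186 ± 26.2 and 144 ± 59.6 TPM (adjusted p = 0.484). Nkx6-1, picked out after its values had been seen, averaged 96.7 TPM in Control and 55.0 TPM in Chd4KO without overlap. Its change of -0.81 did not pass (limma adjusted p = 0.0554).

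**Figure D5:**
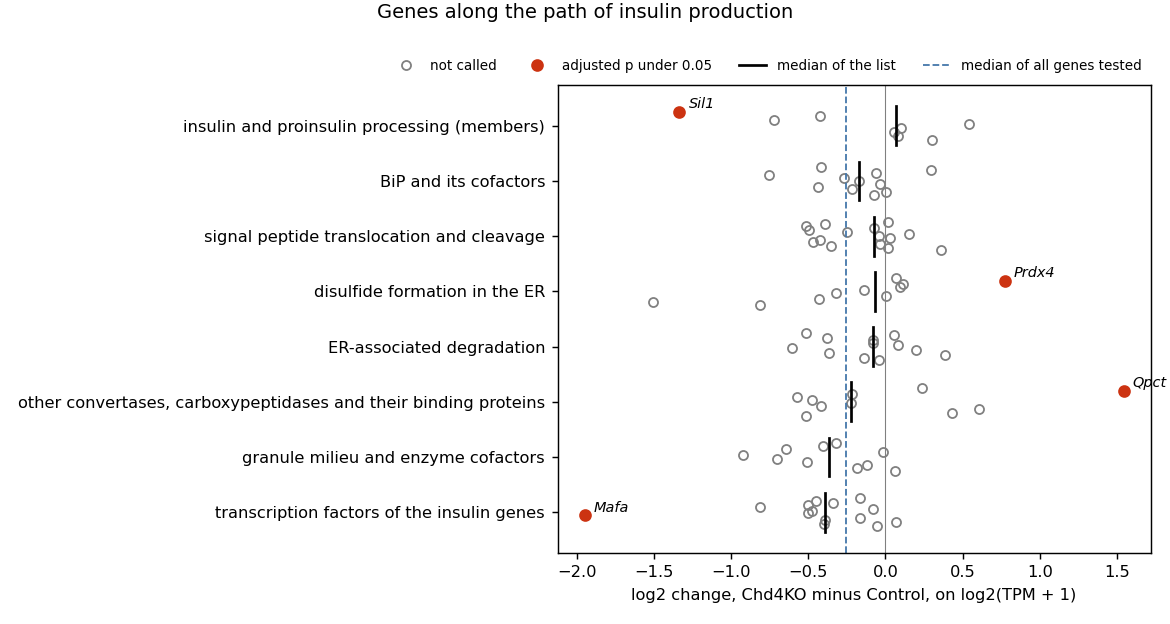
Change of each tested gene between Chd4KO and Control (x axis, log2 of TPM + 1) in the 8 genes and the 7 lists around them (rows), with filled points for an adjusted p under 0.05, a black bar at the median of a list and a dashed line at the median of all genes tested, -0.25. Besides Sil1, the filled points are Prdx4 and Qpct to the right of 0 and Mafa to the left.

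Other genes with a similar course over the 8 libraries were sought by Pearson correlation of log2(TPM + 1) among 6302 protein-coding genes with a mean of at least 10 TPM. The 8 points of each share library and depth, and Chd4KO replicate 4 lies apart for many genes, so these values are descriptions. The correlation pools both groups. Genes nearest to Sil1, which differed between the groups, are therefore picked in part for the same fall. Nearest to Sil1 were Cops7a (r = 0.994), Rflna (0.987) and Bckdk (0.986), of which Rflna fell from 30.05 to 7.85 TPM (limma adjusted p = 0.00119). Nearest to Pcsk1 were Abr (0.996), Atp2a2 (0.994) and Anks3 (0.991), and nearest to Pcsk2 were Hap1 (0.993), Rabgef1 (0.992) and Map3k15 (0.990). Cpe was followed most closely by Slc16a11 (0.983), Phgdh (0.974) and Rab34 (0.962), and Pam by Gnb2 (0.975), Kcnh2 (0.974) and Ube2d2a (0.974). For Iapp these genes were Ctsl (0.987), Zfp1 (0.984) and Coq2 (0.981), and for Ins2 Oaz1 (0.974), Coa3 (0.962) and Ppp1r1a (0.955). Ins1 had the loosest neighbours of the 8, Timm17b (0.886), Pcyt2 (0.885) and Bckdhb (0.823). Of all these genes, Rflna alone passed the test between the groups.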

How the data were processed

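RNA of sorted beta cells was amplified with a low-input full-length cDNA kit and made into libraries with a kit that does not mark strand, per the labels' protocols. The deposited tables, 1 per library, hold TPM for 55487 Ensembl gene identifiers, computed by the authors. The submitters' processing notes name FastQC, Trimmomatic, HISAT2, HTSeq, DESeq2 and the build mm10. Versions, roles, the annotation and the treatment of reads that map to more than 1 place are not given in the sources used here. GENCODE M21 gave names, coordinates and exon lengths, and 55227 identifiers (99.5%) were in it.

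The members and lists were chosen with earlier results of these data known. Log2(TPM + 1) of the 15189 genes with at least 1 TPM in at least 4 libraries was fitted with limma 3.58.1 in R 4.3.3, with 4 Control and 4 Chd4KO libraries and no covariate. P-values were adjusted by Benjamini-Hochberg over all 15189, and a gene was called at an adjusted p under 0.05. Intervals of fold changes come from the same fit. The 10 ratios and shares were compared on the log2 scale (the insulin share in percent) by two-sided exact permutation, adjusted over the 10. From each list the text names every called gene and, where fewer than 2 were called, the 2 tested genes with the highest mean TPM. Genes named outside this rule are said to be so, apart from cell type markers. TPM multiplied by exon length, in units of a step fitted for each library, gave whole reads for 98.5 to 98.7% of genes above 0 TPM (tolerance 0.05 of a read). The rounded numbers of steps were taken as reads per gene. These intervals and the read numbers cover the libraries at hand, and reads without molecular identifiers are not independent molecules. Alternatives covered the pseudocount, the filter, the scaling, the variance model, library weights, voom on recovered reads, the replicate number and left-out libraries. Python 3.11.15 with scipy 1.17.1 and pandas 2.3.3 made the remaining computations.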

Additional observations from a re-analysis of the deposited data

Results flagged for a closer look

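One result stood out within its group. In Control the ratio of Sil1 to insulin was 0.272 TPM per 1000 TPM in replicate 1, against 0.209 to 0.215 in the other 3 libraries. The gap to its nearest neighbour was 0.904 of the whole range of the group, above Dixon's 95% critical value for 4 samples. Chance flags about 1 in 20 groups, and 40 groups were examined. Sil1 itself was highest in the same library, at 104 TPM, and insulin was lowest there, at 38.1% of TPM. Without Control replicate 1 the difference in this ratio was -1.37 on the log2 scale.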

How the results depend on the processing

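The call on Sil1, the lower direction of Pcsk2 (no call in any setting) and the absence of a call for Ins1, Ins2, Iapp, Pcsk1, Pcsk2 and Cpe held in every alternative that gave a value, except that Sil1 lost its call when libraries were scaled to insulin (-1.43). Quantile normalisation fixes the top 3 genes at equal values in every library and gives none for Ins1, Ins2 and Iapp. The number of all genes called, 451 as reported, was 220 with a minimum of 5 TPM, 724 with median-of-ratios scaling (444 higher, 280 lower), 755 with quantile normalisation (466 higher, 289 lower), 155 scaled to insulin (103 higher, 52 lower, against 233 and 218 as reported), 1364 with array weights and 833 without Chd4KO replicates 2 and 4. It ranged from 171 to 866 when 1 library was left out (Control replicate 1 250, 2 173, 3 218 and 4 171, Chd4KO replicate 3 233 and 4 866). Of the pathway lists, 3 genes were called as reported, 1 scaled to insulin, 7 with array weights, 5 without Chd4KO replicates 2 and 4, and 1 to 4 with 1 library left out. The causes of these differences were not tested.

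Pam passed with median-of-ratios scaling (0.82), scaling that leaves out hormones and mitochondrial genes (0.70), quantile normalisation (0.74), array weights (0.69), without Chd4KO replicates 2 and 4 (0.74) and without Chd4KO replicate 4, the upper end of its range of 0.43 to 0.77 with 1 library left out. Cpe turned to -0.050 under quantile normalisation, Iapp to -0.021 scaled to insulin and Pcsk1 to 0.025 without Chd4KO replicates 2 and 4. With 1 library left out the changes ranged from -0.015 to 0.11 for Ins1, from -0.13 to 0.27 for Ins2 and from -0.10 to 0.32 for Iapp.

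Of the other named genes, none with a call turned. With median-of-ratios scaling the changes were 0.019 for Hspa5, 0.21 for Ssr2, 0.15 for Pdia3, 0.21 for Herpud1, 0.21 for Os9, 0.066 for Pcsk1n and 0.10 for Atp6ap1. With hormones and mitochondrial genes left out of the scaling they were 0.080 for Ssr2, 0.019 for Pdia3, 0.074 for Herpud1 and 0.074 for Os9, and with quantile normalisation 0.042, 0.00889, 0.00346 and 0.055 for these 4. Array weights gave 0.11 for P4hb, 0.10 for Pdia3 and 0.13 for Os9, voom 0.040 for Ssr2, 0.035 for Herpud1 and 0.035 for Os9, and scaling to insulin -0.082 for Tram1. Without Chd4KO replicates 2 and 4 the changes were 0.28 for Hspa5, 0.14 for Ssr2, 0.41 for P4hb, 0.36 for Pdia3, 0.31 for Os9 and 0.022 for Atp6ap1. With 1 library left out they ranged from -0.14 to 0.20 for Tram1, -0.17 to 0.083 for Ssr2, -0.61 to 0.14 for P4hb, -0.34 to 0.087 for Pdia3, -0.33 to 0.069 for Herpud1 and -0.26 to 0.16 for Os9.

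Among the ratios, that of Ins2 to Ins1 differed by -0.12 without Chd4KO replicates 2 and 4 and by -0.19 to 0.17 with 1 library left out. That of Iapp to insulin differed by 0.025 with Ins1 alone as denominator, by 15.1 TPM per 1000 as a difference of means, by 0.13 without Chd4KO replicates 2 and 4 and by -0.34 to 0.39 with 1 library left out. Pcsk1 to Pcsk2 differed by 0.032 without replicates 2 and 4, and the insulin share by -1.61 to 8.27 percentage points with 1 library left out. The ratios of Sil1 to insulin and to Hspa5 were lower in Chd4KO in each alternative, at -1.35 and -1.59 without replicates 2 and 4 and at -1.62 to -1.23 and -1.28 to -0.79 with 1 library left out, where the smallest p that exact permutation allows is 0.133 and 0.0571.

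Deviations of libraries of the same replicate number, 1 to 4, correlated at -0.02, 0.43, 0.08 and 0.04. Of the 4 Control libraries 1, replicate 2, was nearest to its own number. With so few libraries this check cannot decide whether the number pairs them. With the replicate number as a block, 274 genes were called, no call among the 8 genes changed (Sil1 limma adjusted p = 0.0282), Prdx4 lost its call (adjusted p = 0.134), and the differences of -1.46 and -1.09 in the ratios of Sil1 to insulin and to Hspa5 reached p = 0.125, the smallest that 4 pairs allow in an exact sign-flip test.

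Each of the 8 genes had at least 864 recovered reads in every library, and how far depth or the number of libraries limits the calls was not tested.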

Other observations

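Genes that lie within 250 kb of the insulin and processing genes were read for their own changes, a comparison added after the data had been seen. Of the 2 tested genes near Ins2, Th, which encodes the tyrosine hydroxylase of dopamine synthesis and lies next to Ins2 on chromosome 7, rose in Chd4KO to 155 ± 39.8 TPM from 37.0 ± 9.02 TPM (SD over 4 libraries each), by 2.02 ± 0.26 on the log2 scale (SE; adjusted p = 0.00397 in limma), and Mrpl23 did not pass. None of the 7 tested genes near Iapp passed, nor any of 4 near Pcsk2, 2 near Cpe and 7 near Pam. Of 11 near Sil1 only the antisense genes within its span, AC147989.1 and AC147989.3, fell. No gene near Ins1 or Pcsk1 was tested. Among all genes tested 2.97% were called, 1.53% upward and 1.44% downward. So few calls cannot be read as a result about these neighbourhoods.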
